A study of Mus musculus with 11 samples.

Results

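The core circadian clock genes of the mouse, Arntl (Bmal1), Clock, Per1, Per2, Per3, Cry1, Cry2, Nr1d1, Nr1d2 and the clock output gene Dbp, were examined in the retinal pigment epithelium (RPE) and choroid. They were picked by name as the parts of the feedback loop, by a rule that uses no measured level but with earlier results of these data known, and all 10 were among the 14602 genes counted in 11 libraries. The mice were C57BL/6J, and the laser treated animals received nanosecond laser pulses at 9 months of age. RPE/choroid was collected at 12 months of age, giving 5 samples from laser treated mice and 6 from naïve control mice of the same age that were never lasered. The laser was given to one eye in a ring around the optic nerve head, and the untreated fellow eyes were not analysed here. The mice lived under an alternating light and dark cycle, but the time of day of collection is not given in the sources used here, so a difference in collection time and an effect of the laser cannot be told apart for these genes. The samples are whole tissue pieces, in which fewer cells of a type and less RNA per cell cannot be told apart.

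The clock is a loop of transcription. The proteins CLOCK and BMAL1 (from Arntl) form a pair that binds E-box sequences and switches on the Per, Cry, Nr1d and Dbp genes, and the PER and CRY proteins then shut this pair off. REV-ERBα and REV-ERBβ, the nuclear receptors made from Nr1d1 and Nr1d2, repress Arntl through ROR elements, while DBP acts on D-box sequences. In the eye, clocks run in the retina and in the RPE, where the shedding and engulfment of photoreceptor outer segment tips follow a daily rhythm.

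Depth was similar in both groups. Total counts lay between 25700881 and 36766020 per naïve control library and between 32094560 and 38755994 per laser treated library, and the clock genes were covered by 175 counts (the lowest, Per1) to 11438 counts (the highest, Dbp) in a library. Markers fixed for the tissue were present, with the 10 RPE markers summing to between 92930 and 129052 CPM (counts scaled to the size of each library) in naïve controls and between 74780 and 123960 CPM after laser. Neural retina was carried over, since its 16 markers summed to between 6265 and 25670 CPM in naïve controls and between 4182 and 19497 CPM after laser. Photoreceptor genes were highest in naïve controls 1 and 3 and in laser treated samples 3 and 4. Schwann cell markers summed to 393 to 683 CPM in naïve controls and 595 to 1298 CPM after laser. By log2 fold change 3 of 10 RPE markers, 1 of 16 neural retina markers and 3 of the 5 measured Schwann cell markers were above 0, and the part of these tissues in the clock gene values was not tested. Best1 was at 0 counts in naïve controls 2 and 4 and in laser treated sample 4, and Prx in naïve control 6 and in laser treated sample 1. The header of the transcript files labels 5 libraries R1 (3 naïve control, 2 laser treated) and 6 libraries R2 (3 of each), and the meaning of this label is not given in the sources used here.

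The sequences just before the start sites are shown for 6 of the genes, because the clock acts on them through the short motifs named above. RefSeq promoter windows (build GRCm38.p6, 250 bases before to 50 bases after a start) were found for 9 of the 10 genes. The motifs searched on both strands were the E-box CACGTG, the E′-box CACGTT, the D-box TTANGTAA, the ROR element TAGGTCA and the cyclic AMP response element TGACGTCA, of which the first and the last read the same on both strands. No match in the clock genes' windows overlapped another. The upstream 250 bases are printed 5′ to 3′ along the gene's own strand, with any match in capitals.

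Nr1d1, chr11:98775378-98775627, minus strand, with an E′-box 28 bases before the start: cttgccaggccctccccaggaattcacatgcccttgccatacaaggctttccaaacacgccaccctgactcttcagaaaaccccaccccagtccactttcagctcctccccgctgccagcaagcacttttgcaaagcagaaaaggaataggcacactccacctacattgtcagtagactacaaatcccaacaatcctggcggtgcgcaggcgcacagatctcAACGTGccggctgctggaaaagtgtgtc
Nr1d2, chr14:18239107-18239356, minus strand, with no match: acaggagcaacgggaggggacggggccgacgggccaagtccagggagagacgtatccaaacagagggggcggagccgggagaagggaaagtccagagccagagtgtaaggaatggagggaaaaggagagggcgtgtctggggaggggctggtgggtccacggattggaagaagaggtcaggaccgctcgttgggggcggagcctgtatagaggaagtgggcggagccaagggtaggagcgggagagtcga
Dbp, chr7:45704997-45705246, plus strand, with no match: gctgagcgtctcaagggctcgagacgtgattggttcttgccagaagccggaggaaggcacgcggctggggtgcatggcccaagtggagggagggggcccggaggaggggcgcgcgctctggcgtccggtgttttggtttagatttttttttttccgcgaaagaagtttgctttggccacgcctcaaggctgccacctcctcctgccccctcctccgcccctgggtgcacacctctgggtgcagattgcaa
Per1, chr11:69098699-69098948, plus strand, the first of 2 windows, with an E-box 166 bases before the start: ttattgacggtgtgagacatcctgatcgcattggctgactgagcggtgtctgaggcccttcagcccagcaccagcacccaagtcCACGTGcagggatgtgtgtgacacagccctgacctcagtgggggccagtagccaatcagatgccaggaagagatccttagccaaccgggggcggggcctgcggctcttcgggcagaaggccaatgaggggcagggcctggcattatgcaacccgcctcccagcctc
Per3, chr4:151044666-151044915, minus strand, with D-boxes at 205 and 158 bases before the start: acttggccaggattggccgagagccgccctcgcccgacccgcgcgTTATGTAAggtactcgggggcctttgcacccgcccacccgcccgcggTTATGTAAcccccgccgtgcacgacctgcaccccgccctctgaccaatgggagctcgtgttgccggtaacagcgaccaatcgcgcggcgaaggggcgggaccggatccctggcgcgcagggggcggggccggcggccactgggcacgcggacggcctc
Cry1, chr10:85185055-85185304, minus strand, with an E′-box at 79 and an E-box at 60 bases before the start: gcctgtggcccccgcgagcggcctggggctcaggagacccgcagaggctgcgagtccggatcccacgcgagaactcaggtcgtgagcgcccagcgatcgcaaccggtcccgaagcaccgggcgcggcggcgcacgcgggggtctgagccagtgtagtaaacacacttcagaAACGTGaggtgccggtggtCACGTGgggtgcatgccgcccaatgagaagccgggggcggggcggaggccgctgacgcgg

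Cry2 had an E′-box 166 bases before its start, and Arntl had a ROR element 30 bases after a start in 1 of its 2 windows. The second Per1 window held no match. An E-box was found in windows of 2 of the 9 clock genes and in 8.09% of all 27025 genes with a window, an E′-box in 3 of 9 and in 5.44% of all genes, a D-box in 1 of 9 and in 2.72%, a ROR element in 1 of 9 and in 2.97%, and the cyclic AMP response element in 0 of 9 and in 2.03%. A match is a run of letters only, and a window without one says nothing of sites elsewhere in the gene.

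The order of the clock genes by level was led by an output gene and the REV-ERB genes. On the scale of RPKM (CPM per kilobase of exons, mean ± SD over 11 libraries), Dbp stood at 65.2 ± 18.2, Nr1d1 at 41.6 ± 12.6 and Nr1d2 at 17.4 ± 3.88. Each of these 3 exceeded the next gene in the order in 11 of 11 libraries. Cry1 followed at 8.14 ± 2.69 and Cry2 at 7.34 ± 1.65, the light-independent repressors of the loop, and Cry1 was above Cry2 in 8 of 11 libraries. The activator Arntl reached 3.86 ± 1.15, and its partner Clock reached 1.89 ± 0.580. The Per genes were at 2.86 ± 1.27 (Per2), 1.83 ± 0.470 (Per3) and 1.63 ± 0.452 (Per1). From Cry1 down, neighbours in this order overlapped across libraries, and Clock was above Per3 in only 6 of 11. Dbp was above 95.3% of all genes on this scale and Per1 above 33.5%.

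**Figure D1:**
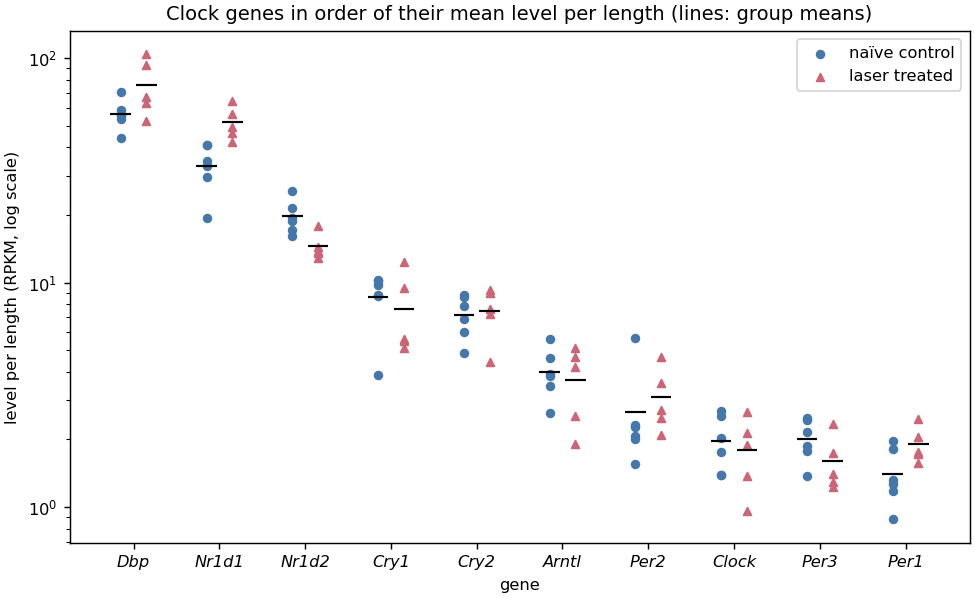
Level per length of each clock gene on a log axis in RPKM (CPM per kilobase of exons), with 1 point per library (circles, 6 naïve controls; triangles, 5 laser treated) and lines at the group means. Dbp, Nr1d1 and Nr1d2 lie above the other 7 genes, whose ranges overlap their neighbours'.

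The comparison of the groups asked whether clock gene expression differed 3 months after the laser. None of the 10 clock genes passed an adjusted p of 0.05 in edgeR's quasi-likelihood test, where the share of all 14602 genes that passed was 0%. Before adjustment 3 clock genes had a p under 0.05 (Nr1d1 and Dbp higher after laser, Nr1d2 lower), beside 15.9% of all genes. In the higher direction that is 2 of 10, with 8.24% of all genes, and in the lower direction 1 of 10, with 7.68%. DESeq2, run as an alternative, called 1 clock gene at an adjusted p under 0.05, Nr1d1, beside 6.68% of the genes for which it gave an adjusted p. The log2 fold changes, laser treated against naïve control, were above 0 for 5 clock genes and below 0 for 5, with a median of -0.03, while the median of all genes was -0.02. The groups did not overlap for 1 clock gene, Nr1d1, and for 2.26% of all genes. These p-values set the difference between the groups against the spread between samples. The labels number the samples as replicates of each group, and each was taken here as a separate animal.

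**Figure D2:**
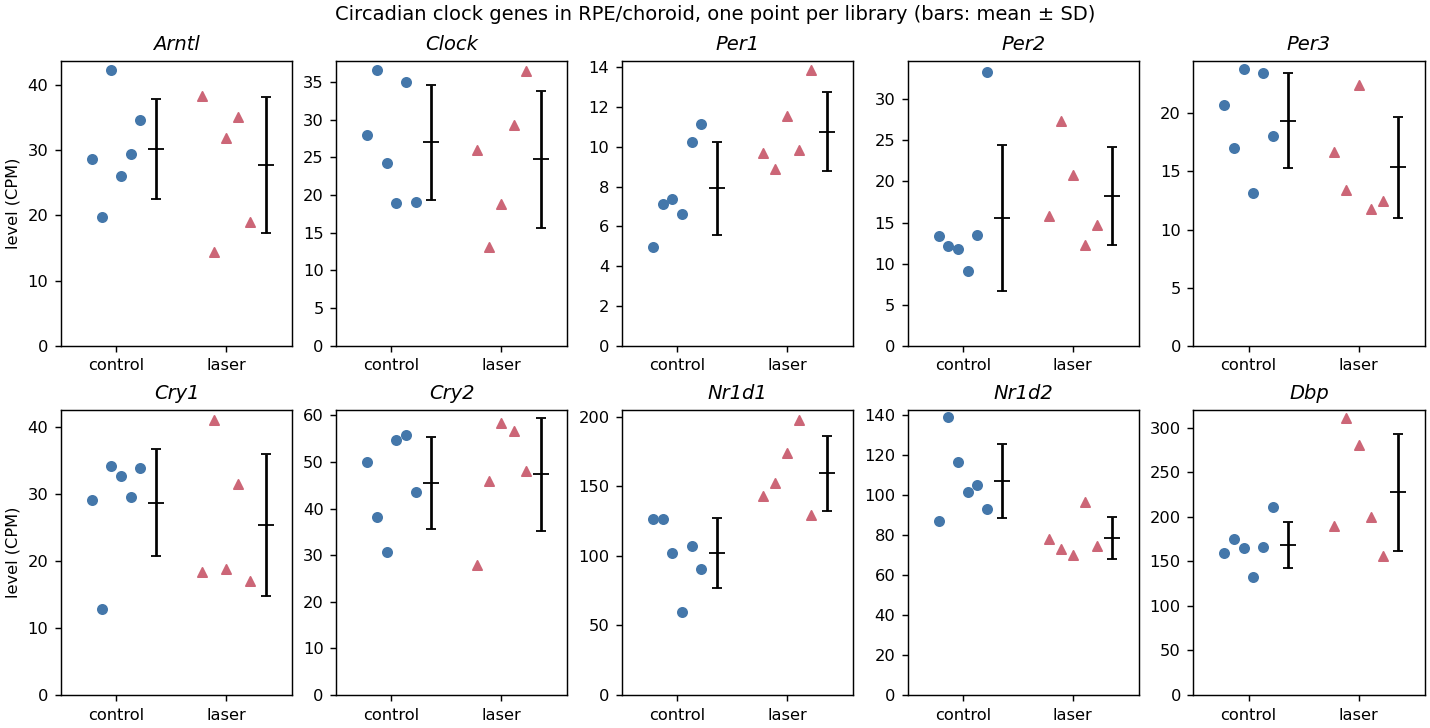
CPM of each clock gene in every library (circles, 6 naïve controls; triangles, 5 laser treated; black bars, mean ± SD; each axis starts at 0). Nr1d1 is the gene whose groups do not overlap, with naïve controls up to 127 CPM and laser treated samples from 130 CPM.

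Nr1d1, which encodes REV-ERBα, was measured at 126, 127, 102, 59.6, 107 and 90.8 CPM in naïve controls 1 to 6. After laser it was measured at 143, 153, 174, 198 and 130 CPM. Every laser treated sample was above every naïve control, although the highest control and the lowest treated sample were only 127 and 130 CPM. The group means were 102 ± 25.1 CPM (SD, n = 6) and 159 ± 26.9 CPM (SD, n = 5). The log2 fold change was 0.64 with a standard error of 0.182, or 1.56-fold with a 95% interval of 1.19 to 2.05 (edgeR, adjusted p = 0.174). DESeq2 gave an adjusted p of 0.0297, and over 25 alternatives the adjusted p lay between 0.0297 and 0.790. Within the R1 libraries the log2 fold change was 0.34 (edgeR, adjusted p = 0.411) and within R2 it was 0.98 (edgeR, adjusted p = 0.790), with p before adjustment under 0.05 in R2 alone.

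Nr1d1 shares 263 exonic bases (8.55%) with Thra, the thyroid hormone receptor gene on the opposite strand. How strand was handled in the counting is not given in the sources used here, so reads over the shared bases could belong to either gene. The coverage in the transcript files was therefore taken over the exonic bases of Nr1d1 that no other gene covers, scaled to each library's total coverage. The log2 ratio of the group means was then 0.75, and the groups again did not overlap.

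Nr1d2, which encodes REV-ERBβ, stood lower on average after laser. It was measured at 87.3, 139, 116, 101, 105 and 92.8 CPM in naïve controls and at 78.3, 72.9, 70.0, 96.7 and 74.6 CPM after laser. The groups overlapped through laser treated sample 4, which lay above naïve controls 1 and 6. The means were 107 ± 18.6 CPM (SD, n = 6) and 78.5 ± 10.6 CPM (SD, n = 5). The log2 fold change was -0.45 with a standard error of 0.141, or 0.734-fold with a 95% interval of 0.595 to 0.905 (edgeR, adjusted p = 0.185). Within R1 it was -0.57 (edgeR, adjusted p = 0.286) and within R2 -0.29 (edgeR, adjusted p = 0.821). No exon of another gene overlaps Nr1d2, and the ratio from exon coverage was -0.34 on the log2 scale, with overlapping groups. Nr1d2 also varied least among the clock genes, with a within-group SD of 0.217 in log2 CPM.

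The balance of both REV-ERB genes, looked at after their values were seen and so given without a test, ran from 0.587 to 1.45 Nr1d1 counts per Nr1d2 count in naïve controls and from 1.74 to 2.49 after laser. The mean ratio was 0.970 ± 0.279 (SD, n = 6) in naïve controls and 2.04 ± 0.291 (SD, n = 5) after laser. With the trend on GC content described below removed, the log2 difference between these genes ran from -0.59 to 0.83 in naïve controls and from 0.53 to 0.97 after laser, and the groups then overlapped.

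Dbp, a PAR bZIP transcription factor whose transcript is among the most strongly rhythmic in many tissues, was measured at 160, 175, 165, 132, 167 and 211 CPM in naïve controls. After laser it was measured at 189, 311, 280, 200 and 156 CPM. Laser treated samples 2 and 3 were above every control, and laser treated sample 5 was below 5 of the 6 controls. The means were 168 ± 25.6 CPM (SD, n = 6) and 227 ± 65.2 CPM (SD, n = 5). The log2 fold change was 0.43 with a standard error of 0.177, or 1.35-fold with a 95% interval of 1.04 to 1.76 (edgeR, adjusted p = 0.257). It was 0.29 (edgeR, adjusted p = 0.531) without laser treated sample 2, 0.35 (edgeR, adjusted p = 0.440) without laser treated sample 3 and 0.36 (edgeR, adjusted p = 0.364) without naïve control 4, and p before adjustment was then no longer under 0.05. Within R1 it was 0.61 (edgeR, adjusted p = 0.249) and within R2 0.34 (edgeR, adjusted p = 0.852). Dbp shares 539 exonic bases with Sphk2 on the opposite strand. Over the rest of its exons the log2 ratio of mean coverage was 0.69, with overlapping groups.

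The Per genes, whose proteins repress CLOCK and BMAL1 and which also respond to light and hormones, did not share 1 direction. Per1 was at 4.95 to 11.1 CPM (median 7.27) in naïve controls and at 9.68, 8.89, 11.5, 9.86 and 13.9 CPM after laser. Its log2 fold change was 0.44 with a standard error of 0.266 (edgeR, adjusted p = 0.450), and naïve controls 5 and 6 lay within the treated range. Per2 was at 13.3, 12.1, 11.7, 9.08, 13.5 and 33.3 CPM in naïve controls and at 15.8, 27.3, 20.8, 12.3 and 14.7 CPM after laser. Naïve control 6 held the highest Per2 of all 11 libraries. For Per2 the log2 fold change was 0.23 with a standard error of 0.332 (edgeR, adjusted p = 0.812). It was 0.59 (edgeR, adjusted p = 0.218) without naïve control 6 and 0.04 (edgeR, adjusted p = 0.983) without laser treated sample 2. Within R1 it was 0.82 (edgeR, adjusted p = 0.277) and within R2 -0.21 (edgeR, adjusted p = 0.978), so the direction for Per2 differed between the labels. Naïve control 6, at 33.3 CPM, is an R2 library. The R2 naïve controls 4 and 5 were at 9.08 and 13.5 CPM, and the R2 laser treated samples at 20.8, 12.3 and 14.7 CPM. Before adjustment p was under 0.05 without naïve control 6 and within R1.

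Per3, the Per gene that the core loop can run without, was at 13.2 to 23.8 CPM (median 19.4) in naïve controls and at 16.7, 13.4, 22.4, 11.8 and 12.4 CPM after laser. In 4 of the 5 laser treated samples Per3 was below at least 5 of the 6 controls. Its log2 fold change was -0.34 with a standard error of 0.227 (edgeR, adjusted p = 0.519), and -0.51 (edgeR, adjusted p = 0.351) without laser treated sample 3, where p before adjustment was under 0.05.

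The cryptochromes, which repress CLOCK and BMAL1 together with the PER proteins, overlapped between the groups. Cry1 was at 12.9 to 34.1 CPM (median 31.1) in naïve controls and at 41.1 and 31.6 CPM in laser treated samples 2 and 4 and below 19 CPM in the other 3. For Cry1 the log2 fold change was -0.18 with a standard error of 0.291 (edgeR, adjusted p = 0.835). Cry2 was at 30.7 to 55.7 CPM (median 46.7) in naïve controls and at 27.9, 45.9, 58.3, 56.7 and 48.1 CPM after laser. For Cry2 the log2 fold change was 0.06 with a 95% interval of -0.39 to 0.51 (edgeR, adjusted p = 0.931).

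The activators had group means close to each other and spread widely within the groups. Arntl was at 19.7 to 42.2 CPM (median 29.1) in naïve controls and at 38.3, 14.4, 31.8, 35.1 and 19.1 CPM after laser. Its log2 fold change was -0.12 with a 95% interval of -0.69 to 0.46 (edgeR, adjusted p = 0.888). Clock was at 19.0 to 36.6 CPM (median 26.1) in naïve controls and at 25.9, 13.1, 18.8, 29.3 and 36.4 CPM after laser. Its log2 fold change was -0.13 with a 95% interval of -0.71 to 0.45 (edgeR, adjusted p = 0.884). Exon coverage in the transcript files gave log2 ratios of the group means farther from 0, -0.44 for Arntl and -0.39 for Clock, with overlapping groups. That coverage came from 3 to 8 assembled fragments per library for Arntl and 2 to 8 for Clock, genes with 22 and 24 separate stretches of exon. For the Per and Cry genes these ratios were 0.35 (Per1), 0.27 (Per2), -0.23 (Per3), -0.06 (Cry1) and 0.10 (Cry2), each with overlapping groups.

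Spread between samples of a group was uneven over the loop. The within-group SD of log2 CPM was 0.565 for Per2, 0.551 for Cry1, 0.494 for Arntl and 0.491 for Clock, and it was 0.377 for Cry2, 0.358 for Per1, 0.348 for Per3, 0.340 for Nr1d1 and 0.319 for Dbp. Cry1 spread more than 82.5% of the genes of like abundance and Nr1d1 more than 78.3%, while Per1 spread more than 11.8% and Nr1d2 more than 24.1%. Laser treated sample 2 held the lowest Arntl and Clock and the highest Dbp and Cry1 of all 11 libraries. Its ratio of Dbp to Arntl counts was 21.6, whereas the other 10 libraries lay between 3.92 and 8.90. Naïve control 4 held the lowest Nr1d1, Dbp and Per2.

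**Figure D3:**
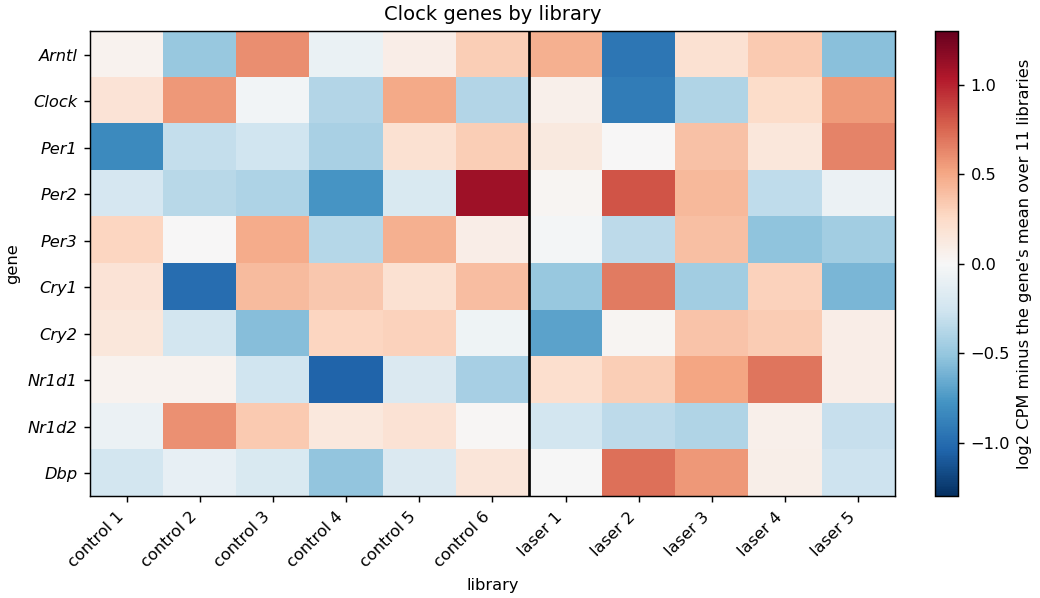
Log2 CPM of each clock gene in every library, minus that gene's mean over the 11 libraries (red, above the mean; blue, below; the black line parts 6 naïve controls from 5 laser treated samples). Nr1d1 is red and Nr1d2 mostly blue to the right of the line, and laser treated sample 2 is blue for Arntl and Clock and red for Per2, Cry1 and Dbp.

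The sign of the fold changes followed the GC content of the clock genes' longest transcripts. The 5 genes with the highest GC content (Dbp 61.6%, Per1 59.4%, Nr1d1 56.8%, Cry2 55.6% and Per2 54.3%) were the 5 with a log2 fold change above 0. The 5 with the lowest (Per3 52.4%, Cry1 51.6%, Arntl 48.2%, Nr1d2 41.8% and Clock 40.9%) were the 5 below 0. All genes followed the same trend, with median log2 fold changes of -0.32, -0.17, 0.01, 0.19 and 0.29 across 5 equal bins of genes from the lowest GC content to the highest. RNA was amplified before the libraries were made, and the part of GC content in these differences was not tested apart from the values below.

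**Figure D4:**
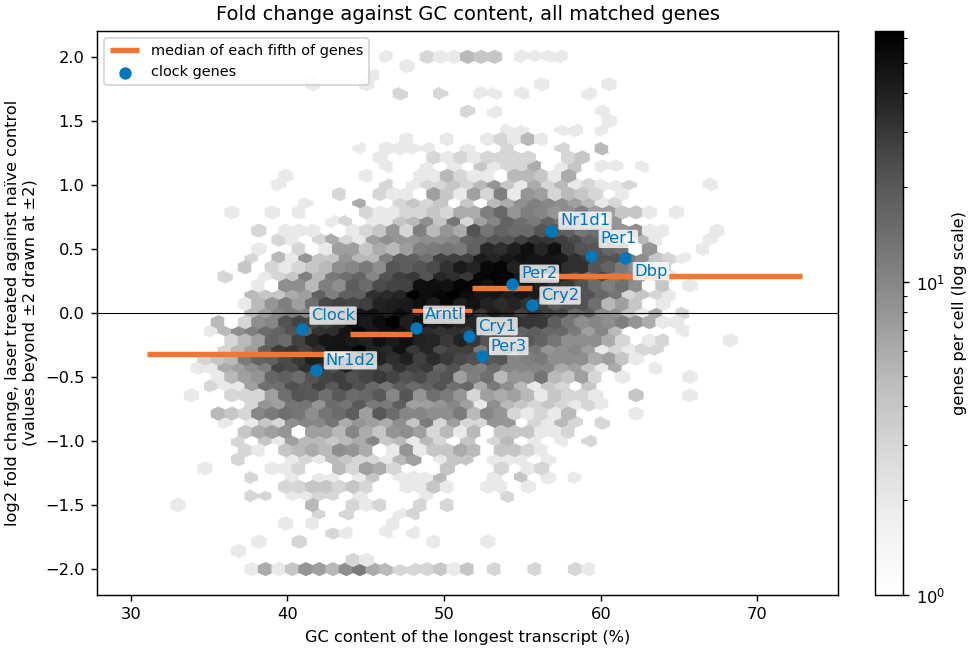
Log2 fold change, laser treated against naïve control, against transcript GC content in percent for all matched genes (grey cells, number of genes on a log scale), with the median of each of 5 equal bins of genes (orange) and the 10 clock genes (blue). The medians climb from -0.32 to 0.29, and the clock genes above 0 all lie at 54.3% GC or more.

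With a smooth trend on GC content removed from each library, 0 of the 10 clock genes had a p under 0.05 before adjustment in edgeR, beside 8.14% of all genes, and 0 passed an adjusted p of 0.05. Nr1d1 kept a log2 fold change of 0.37 with a standard error of 0.183 (edgeR, adjusted p = 0.636). Per3 lay farther from 0, at -0.45 with a standard error of 0.228 (edgeR, adjusted p = 0.640). Nr1d2 came to -0.14 (edgeR, adjusted p = 0.840), Dbp to 0.13 (edgeR, adjusted p = 0.887), Per1 to 0.16 and Per2 to 0.04. Clock, at 0.20, and Cry2, at -0.18, then had the opposite sign. With the label R1 or R2 in the same fit, an alternative added after the data were seen, Nr1d1 stood at 0.42 (edgeR, adjusted p = 0.694). Its p before adjustment was under 0.05 in that fit. On these GC-adjusted values the groups overlapped for Nr1d1, at 5.95 to 7.07 log2 CPM in naïve controls and 6.86 to 7.37 after laser.

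**Figure D5:**
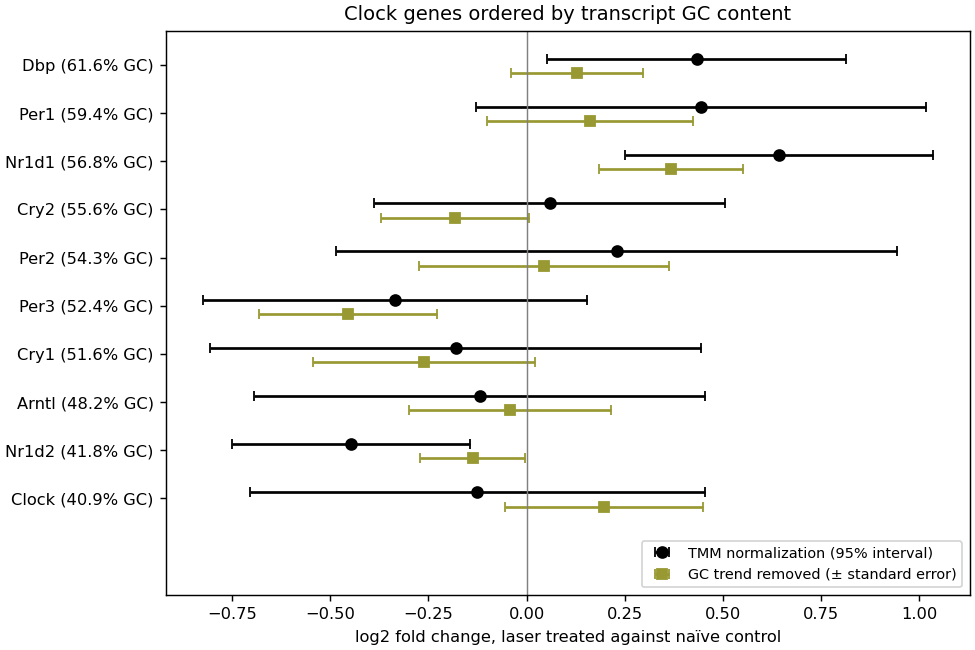
Log2 fold change of the 10 clock genes, from the highest transcript GC content at the top to the lowest, with normalization by library only (black circles, 95% interval) and with the GC trend removed (olive squares, ± standard error). Nr1d1 and Per3 lie farthest from 0 after the trend is removed, at 0.37 and -0.45.

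In rhythmic tissues Arntl transcripts peak when those of Dbp and Nr1d1 are low. Across the 11 libraries, log2 CPM of Arntl was correlated with that of each other clock gene, 9 pairs in all. Pearson's r ran from -0.25 (Cry2, p = 0.455, permutation test) to 0.48 (Per3, p = 0.140, permutation test), and 0 of 9 pairs passed an adjusted p of 0.05, the lowest being 0.935. For Per3 Spearman's rho was 0.37 (p = 0.262, permutation test), and r was 0.17 without laser treated samples 2 and 5, which lie farthest from the median of Arntl. For Arntl and Dbp r was -0.22 (p = 0.526, permutation test), rho was 0.13 (p = 0.713, permutation test) and r without the same samples was 0.27. Within the 6 R2 libraries r of Arntl and Dbp was 0.60, and no opposite course was detectable with 11 libraries.

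All 45 pairs were looked at afterwards. Per2 and Dbp had the highest r, 0.78 (p = 0.00744, permutation test; adjusted p = 0.335), with a rho of 0.70 (p = 0.0208, permutation test; adjusted p = 0.460), and did not pass after adjustment. Their r was 0.83 without naïve control 6 and laser treated sample 2, 0.78 on values centred by group, 0.68 within R2 and 0.76 with the GC trend removed. Nr1d1 and Dbp had an r of 0.62 (p = 0.0422, permutation test; adjusted p = 0.618) and a rho of 0.57 (p = 0.0694, permutation test), with 0.56 when naïve control 4 and laser treated sample 4 were left out. Centred by group, r of Nr1d1 and Dbp was 0.36, and with the GC trend removed it was 0.33. Clock and Dbp had an r of -0.61 (p = 0.0458, permutation test; adjusted p = 0.618) and a rho of -0.44 (p = 0.183, permutation test). Their r was -0.63 centred by group and -0.56 with the GC trend removed, but -0.35 without laser treated sample 2 and naïve control 2, so it rested in part on those libraries.

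Among 13702 genes with a mean of at least 1 CPM, those most like Dbp by r of group-centred log2 CPM over the 11 libraries included 2510012J08Rik (0.97), Cdipt (0.93), Ccl9 (0.93) and Napa (0.93). Those least like it were Fxyd1 (-0.95), Mbp (-0.90) and Efhd1 (-0.90). Mbp encodes myelin basic protein and stood at 30.1 and 69.5 CPM in laser treated samples 2 and 3, where Dbp was highest, against 566, 269 and 440 CPM in laser treated samples 1, 4 and 5. Mbp thus ran opposite to Dbp among the laser treated samples, and the part of myelinated nerve in the Dbp values was not tested. Of the listed clock-related genes, Csnk1d (0.86), Btrc (0.85), Ciart, listed as Gm129 (0.79), and Per2 (0.78) were the most like Dbp. Those most like Arntl were Pcgf6 (0.94), Ggps1 (0.92), Mysm1 (0.90), Dnajc27 (0.90) and Hist2h3c1 (0.90), and those least like it C1qtnf7 (-0.94), Tril (-0.89) and Tgm2 (-0.89). These values describe 11 libraries that share depth, tissue makeup and GC trend, and carry no test.

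Other transcription factors of the clock had fold changes in both directions. Of 11 listed, 10 were measured, 7 were above 0 and 3 below, the median log2 fold change was 0.21, and 0 passed an adjusted p of 0.05 in edgeR. Before adjustment 3 of these 10 had a p under 0.05, beside 15.9% of all genes. The groups did not overlap for 2 of these 10, beside 2.26% of all genes. Bhlhe40, whose protein DEC1 represses E-box genes, was at 80.3 to 136 CPM in naïve controls and at 138, 189, 154, 189 and 140 CPM after laser, without overlap. Its log2 fold change was 0.51 with a standard error of 0.161 (edgeR, adjusted p = 0.182), and 0.54 with the GC trend removed (edgeR, adjusted p = 0.554). Hlf, a PAR bZIP factor related to Dbp, was lower on average, at 71.7 to 88.4 CPM in naïve controls and at 69.9, 64.6, 51.9, 47.5 and 56.3 CPM after laser, again without overlap. Its log2 fold change was -0.43 (edgeR, adjusted p = 0.177), and -0.24 (edgeR, adjusted p = 0.650) with the GC trend removed. Hlf and Dbp thus had fold changes of opposite sign within 1 family, and Tef, the remaining member, was at 0.23 (edgeR, adjusted p = 0.487). The signs of Hlf, at 45.1% GC, and Dbp, at 61.6%, are those of the GC trend over all genes. With that trend removed Dbp was at 0.13 (edgeR, adjusted p = 0.887), and a difference between Hlf and Dbp was not tested.

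The ROR genes encode activators that compete with REV-ERB proteins for ROR elements. Rorb, which photoreceptors also express, was at 57.1 to 178 CPM in naïve controls and at 74.7, 54.0, 70.9, 57.4 and 50.4 CPM after laser (log2 fold change -0.82, standard error 0.292; edgeR, adjusted p = 0.217). Rorb was highest in naïve controls 1 and 3, at 178 and 167 CPM, the controls with the most neural retina RNA. Laser treated samples 3 and 4, with neural retina marker sums of 19248 and 19497 CPM, had 70.9 and 57.4 CPM of Rorb. With a sum of 4390 CPM, laser treated sample 1 had 74.7 CPM. The part of retina in the Rorb values was not tested. Rora was at -0.07. Npas2, a relative of Clock, had the largest log2 fold change of the list, 1.96 with a standard error of 1.15 (edgeR, adjusted p = 0.436), from a mean of 0.454 CPM to 1.79 CPM that came from laser treated samples 3, at 3.65 CPM, and 5, while laser treated sample 2 had 0 counts.

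Of 17 genes whose proteins modify or hold clock proteins, all were measured, 6 were above 0 and 11 below with a median of -0.19, and 0 passed an adjusted p of 0.05. At an unadjusted p under 0.05, 2 of 17 were higher, beside 8.24% of all genes, and 4 of 17 lower, beside 7.68%. The groups did not overlap for 1 of 17, beside 2.26% of all genes. Csnk2a1, a casein kinase 2 subunit, was at 36.4 to 61.5 CPM in naïve controls and at 31.6, 32.2, 32.3, 25.7 and 24.0 CPM after laser, without overlap (log2 fold change -0.61; edgeR, adjusted p = 0.174). Sfpq, a nuclear RNA-binding protein of PER complexes, was at -0.50 (edgeR, adjusted p = 0.177), and -0.49 with the GC trend removed (edgeR, adjusted p = 0.554). Hdac3, the deacetylase that REV-ERB proteins recruit, was at 0.35 (edgeR, adjusted p = 0.223), and 0.46 with the GC trend removed (edgeR, adjusted p = 0.554). Csnk1d, the kinase of PER proteins, was at 0.43 (edgeR, adjusted p = 0.251). Gsk3b, a kinase that acts on several clock proteins, was at -0.33 (edgeR, adjusted p = 0.299). With the GC trend left in, the adjusted p of these named genes lay between 0.174 and 0.299. Csnk2a1 and Gsk3b, at 44.0% and 46.1% GC, were below 0, and Csnk1d, at 54.1%, was above 0. All genes in the same bins of GC content had medians of the same signs, -0.17 and 0.19. Values of Csnk2a1, Gsk3b and Csnk1d with the GC trend removed are not reported here.

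Rhythmic output genes and immediate early genes were listed to see whether clock-controlled or acutely induced transcripts differed. Of 10 output genes, 7 were above 0 and 3 below with a median of 0.15, and 1 had an unadjusted p under 0.05, beside 15.9% of all genes. This was Nampt, the enzyme that salvages NAD, at 53.6 ± 15.1 CPM (SD, n = 6) in naïve controls and 37.4 ± 3.24 CPM (SD, n = 5) after laser (log2 fold change -0.52; edgeR, adjusted p = 0.211), and -0.19 (edgeR, adjusted p = 0.840) with the GC trend removed. Klf10 had the largest log2 fold change of that list, 0.61 (edgeR, adjusted p = 0.408). Of 14 immediate early genes, which respond within minutes to stress and handling, 11 were measured, 8 were above 0 and 3 below with a median of 0.27, and 1, Jun, had an unadjusted p under 0.05, beside the same 15.9%. Jun was at 10.7 to 16.8 CPM in naïve controls and at 25.5, 9.68, 29.5, 23.0 and 37.9 CPM after laser (log2 fold change 0.89; edgeR, adjusted p = 0.195). Egr1 was at 0.66 with a standard error of 0.926 (edgeR, adjusted p = 0.808).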

How the data were processed

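Per the submitters' processing notes, the authors used bcl2fastq 2.18.0.12, Trim Galore, STAR 2.5.3a, featureCounts 1.5.3, StringTie 1.3.3 and edgeR 3.22.3 with build mm10 (GRCm38). RNA was pre-amplified with a SmartSeq v4 kit, and libraries were made with Nextera XT. The authors deposited raw read counts for 14602 genes in 11 libraries. Beside them they deposited a log2 fold change and log2 abundance, an F score, a p-value and an FDR, all from a test of their own, and none of these was used. The authors also deposited transcripts assembled for each library, with coverage, FPKM and TPM. Total counts were 25700881 to 38755994 per library, and the standard errors give the precision at this depth.

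Counts were normalized by TMM and compared with edgeR 4.0.16 (R 4.3.3; robust quasi-likelihood test, filterByExpr, which removed 0 genes, no covariate, Benjamini-Hochberg adjustment over all genes). CPM and RPKM use TMM library sizes, and log2 CPM has a prior count of 2. Exon length and GC content came from GENCODE M21 on GRCm38, with 13045 genes matched by identifier, 10 by symbol and 1196 by older symbol, and 351 not matched. The GC trend was a loess curve (span 0.3) fitted in each library. Correlations used 100000 permutations (two-sided, scipy 1.17.1, Python 3.11.15). Exon coverage summed the coverage of assembled fragments over the exonic bases of a gene that no other gene's exons cover. A clock gene had from 1 (Per2) to 9 (Per3 and Cry2) such fragments in a library. Alternatives were DESeq2 1.42.0, limma 3.58.1 (voom with sample quality weights), other normalizations and filters, the replicate number as a block, the label R1 or R2, the GC trend and each library left out. The scripts were tested on simulated data.

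The clock genes, the pathway and marker lists and the tests were chosen with earlier results of these data known. All 10 clock genes are named, with each gene of the pathway lists at an unadjusted p under 0.05 and the 2 of largest absolute log2 fold change per list, and the 5 genes most and 3 least like Arntl and Dbp; any other gene was chosen after its values were seen. Results for some genes that this rule names are not reported here, although counts over the lists include them.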

Additional observations from a re-analysis of the deposited data

Results flagged for a closer look

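A test of the highest and lowest sample of each group (Dixon's criterion at 95%) marked 2 of the 20 combinations of clock gene and group, where chance marks about 1 in 20. Per2 stood at 33.3 CPM in naïve control 6, while the other 5 naïve controls lay between 9.08 and 13.5 CPM, a gap of 0.817 of the whole range. Dbp was also highest among the naïve controls in that library, at 211 CPM. Without it the log2 fold change of Per2 was 0.59 (edgeR, adjusted p = 0.218), and with it 0.23 (edgeR, adjusted p = 0.812).

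Cry1 stood at 12.9 CPM in naïve control 2, while the other 5 lay between 29.1 and 34.1 CPM, a gap of 0.764 of the whole range. That library had the lowest total, 25700881 counts, and the highest Nr1d2, at 139 CPM. Its Cry1 level rested on 318 counts.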

How the results depend on the processing

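With 25 alternatives, the number of clock genes at an adjusted p under 0.05 stayed at 0 except with DESeq2, where it was 1 (Nr1d1). Over all genes this number was 502 with DESeq2, 1 with library totals only, 2 with a minimum of 10 counts in every library and 1 with limma voom, and 0 to 4 when 1 library was left out, 4 without laser treated sample 2. The number of clock genes at an unadjusted p under 0.05, 3 as reported, was 1 within label R2 (beside 903 of 14517 genes), 0 with the GC trend removed (1188 of 14602), 1 with the replicate block and the GC trend together (Per3; 1560 of 14602), and 1 with the label and the GC trend together (Nr1d1, added after the data were seen; 1038 of 14602). Within R1 it was 2 (Dbp and Per2; 2547 of 14489).

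Same-numbered samples of both groups had correlations of -0.01 to 0.28 over 5 pairs, and 2 of 5 laser treated samples correlated best with their own number, so the numbers were not taken as pairs. With the replicate block 4 clock genes had an unadjusted p under 0.05, Per2 (0.56; edgeR, adjusted p = 0.275) being added, beside 2546 of 14602 genes (2325 without the block), and 0 had an adjusted p under 0.05.

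Nr1d1, Nr1d2, Dbp, Per1 and Per3 kept their direction under all 25 alternatives. The log2 fold change of Cry2 (0.06) was -0.02 with limma voom (-0.015 before rounding), -0.080 within R1, -0.18 with the GC trend removed, -0.22 with block and GC trend, -0.24 with label and GC trend, and -0.046, -0.026 and -0.030 without naïve control 3, laser treated sample 3 and laser treated sample 4 (highest with 1 library left out, 0.20). Clock (-0.13) was 0.24 within R2, 0.20 with the GC trend removed, 0.12 with block and GC trend, 0.16 with label and GC trend, and between -0.31 and 0.034 with 1 library left out, above 0 without laser treated sample 2. Per2 (0.23) was -0.21 within R2, Cry1 (-0.18) was 0.26 within R1, and Arntl (-0.12) lay between -0.26 and 0.045 with 1 library left out, above 0 without laser treated sample 2. The correlation of Arntl with Dbp (-0.22) lay between -0.35 and 0.36 with 1 library left out, 0.36 without laser treated sample 2. The causes were not tested. No clock gene was at 0 counts, and no sum of TPM was made, since no assembled transcript carries a clock gene's name; exon coverage was used in its place. No value came from a filter-free fit other than the reported one, because the filter removed 0 genes.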

Other observations

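The summed level of the 10 clock genes, most of which comes from Dbp, Nr1d1 and Nr1d2, ran from 455 to 589 CPM in naïve controls and from 522 to 707 CPM after laser. Naïve control 4 had the lowest sum and laser treated sample 3 the highest. Beside these sums, the 10 other clock transcription factors summed to 492 to 632 CPM in naïve controls and to 528 to 679 CPM after laser, and the 17 regulators of clock proteins to 1066 to 1201 CPM and 1000 to 1155 CPM.

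The remaining marker lists were less abundant. Blood markers were lower on average after laser in 4 of 4 measured (48.1 to 326 CPM in naïve controls, 37.2 to 159 CPM after laser), skeletal muscle markers were higher in 6 of 6 (27.9 to 367 CPM and 42.6 to 505 CPM) and endothelial markers higher in 7 of 8 (99.4 to 290 CPM and 172 to 502 CPM). Fibroblast markers were higher in 4 of 6 (86.3 to 473 CPM and 96.9 to 425 CPM), macrophage markers in 5 of 8 (221 to 419 CPM and 311 to 520 CPM), and markers of epidermis or conjunctiva in 1 of 6, with the widest range (13.7 to 1424 CPM and 3.50 to 1128 CPM). None of these lists held a gene at an adjusted p under 0.05 in edgeR. The 1 gene in them at an unadjusted p under 0.05, beside 15.9% of all genes, was Hbb-b1, among the 4 measured blood genes. It was chosen after its value was seen.

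Exon coverage from the transcript files gave ranks by level close to those of the counts. Dbp, Nr1d1 and Nr1d2 again took ranks 1 to 3, Cry1 and Cry2 exchanged ranks 4 and 5, and Clock took rank 6 from Arntl, which came to rank 8. The coverage ranks rest on few assembled fragments, from 1 to 9 per gene and library.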
